A study of Mus musculus with 2 samples.

Results

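The miR-130/301 and miR-148/152 families are 2 groups of microRNAs whose seeds, the bases that choose their targets, differ by a shift of 1 base. They were followed in skeletal muscle of newborn mice. Their 7 genes, Mir130a, Mir130b, Mir301, Mir301b, Mir148a, Mir148b and Mir152, were picked by symbol from the 1973 microRNA genes counted, and all 7 had at least 10 counts in both libraries, as did 365 genes in all. RNA under 30 bases came from muscle of the B6NCrl strain at postnatal day 0, with a piece from 1 pup behind each of 2 libraries (replicates 1 and 2). Sex was not recorded, and no genotype or treatment differed. The labels call the libraries separate biological replicates, yet both carry the same donor record. What separates the libraries may thus be technical or a difference between pups, and p-values speak of these libraries alone. Replicate 1 had 7955914 counts on the annotated strand of microRNA genes and replicate 2 had 10816295.

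A microRNA is cut from a hairpin precursor and loaded into an Argonaute protein, where its bases 2 to 8, the seed, pair with messenger RNAs whose output then falls. Genes that share a seed can act on many of the same messages, so the summed output of a family matters as well as that of each gene. miR-130a is known from human endothelial cells, where it acts on antiangiogenic homeobox genes, and the miR-130/301 family is studied in vascular remodelling. In human cells miR-148a and miR-152 act on the DNA methyltransferase DNMT1. In cultured mouse myoblasts, miR-148a promotes differentiation by acting on the kinase Rock1.

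The mature sequences of the 3p arms are shown because the seed, in capitals, defines each family and the remaining bases tell its members apart. Sequences are from RefSeq on GRCm38.p6, whose tables matched all 7 genes, and are written 5′ to 3′. For Mir301b, whose 3p arm had no entry in the RefSeq sequences used, the hairpin is printed, with the same 7 bases in capitals.
miR-130a-3p: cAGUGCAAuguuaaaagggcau
miR-130b-3p: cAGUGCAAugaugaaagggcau
miR-301a-3p (gene Mir301): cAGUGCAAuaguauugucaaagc
Mir301b hairpin: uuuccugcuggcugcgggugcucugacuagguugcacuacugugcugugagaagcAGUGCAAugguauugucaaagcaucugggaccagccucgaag
miR-148a-3p: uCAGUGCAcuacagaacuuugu
miR-148b-3p: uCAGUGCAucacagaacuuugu
miR-152-3p: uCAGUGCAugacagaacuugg

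The seed AGUGCAA stood at bases 2 to 8 of 7 of the 1738 RefSeq mature sequences (0.403%), and CAGUGCA of 3 (0.173%). Both hold the 6 bases AGUGCA, which begin at base 2 in the miR-130/301 family and at base 3 in the miR-148/152 family. Counted from 1 at the 5′ end, miR-130a-3p and miR-130b-3p differed at 2 of 22 bases (U11A and A13G, miR-130a first), and miR-148a-3p and miR-148b-3p also at 2 (C9U and U10C, miR-148a first). miR-301a-3p shared the seed with miR-130a-3p but differed from it at 10 of 22 bases, all beyond base 9. miR-152-3p differed from miR-148a-3p at 3 of 21 bases (C9U, U10G and U20G, miR-148a first).

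The tables give 1 count for each gene, so reads of the 3p and 5p arms are added together. The 5p arms are shown for the pairs in which they too share a seed, again in capitals.
miR-301a-5p: gCUCUGACuuuauugcacuacu
miR-301b-5p: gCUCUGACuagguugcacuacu
miR-148a-5p: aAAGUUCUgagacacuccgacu
miR-148b-5p: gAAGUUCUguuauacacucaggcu
Each of these 5p seeds belonged to 2 RefSeq mature sequences, the pair shown. The heptamer UUGCACU, the reverse complement of the seed AGUGCAA, was found in the 5p arms of Mir130b, Mir301 and Mir301b (3 of 4 genes) and in 10 of all 1738 mature sequences (0.575%). The reverse complement of the other seed, UGCACUG, was in the 5p arm of 0 of 3 miR-148/152 genes and in 3 of 1738 mature sequences (0.173%). How many of the counts below came from either arm is not known.

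Coordinates are those of GENCODE M21 on GRCm38, the assembly also called mm10. Mir130a lies on the minus strand of chromosome 2 (84741115 to 84741178), outside any annotated gene and 990 bases from the protein-coding gene Gm19426. Mir130b (chromosome 16, 17124061 to 17124142) and Mir301b (17124400 to 17124496) lie 257 bases apart on the minus strand, in an intron of 2610318N02Rik. They were the only members with another annotated microRNA gene within 10 kb. Mir301 lies on chromosome 11 (87113004 to 87113089) in an intron of Ska2, a gene of the spindle and kinetochore. Mir148a is intergenic on chromosome 6 (51269812 to 51269910), 162759 bases from Nfe2l3. Mir148b (chromosome 15, 103285125 to 103285221) and Mir152 (chromosome 11, 96850393 to 96850465) lie in introns of the paralogous genes Copz1 and Copz2, which encode zeta subunits of the COPI vesicle coat. All 5 intronic genes are on the strand of their host gene.

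Levels are given in CPM, annotated-strand counts scaled to the microRNA counts of the library (counts per 1000000). A read of RNA under 30 bases covers a mature microRNA rather than a part of a long transcript, so levels were not divided by length. The 3p arms are 21 to 23 bases long, and division by that length moved the log2 ratio of any of the 6 pairs with both lengths by at most 0.067. In tissue, fewer cells of a type and less RNA per cell cannot be told apart.

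Mir130a carried most of its family. It had 12633 CPM in replicate 1 and 10392 CPM in replicate 2, a mean of 11513 ± 1585 (SD, n = 2) and rank 20 of the 365 detected genes in either library. The family summed to 14284 and 11695 CPM in replicates 1 and 2, or 1.30% ± 0.183 of all microRNA counts, and Mir130a made up 88.7% ± 0.297 of it (SD, n = 2). That share was 88.4% in replicate 1 and 88.9% in replicate 2. Reads with several matching places were kept out of all gene counts, which can alter a family's percent of microRNA counts and a gene's rank.

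Mir130b, which differs from Mir130a at 2 bases of the 3p arm, had 997 CPM in replicate 1 and 896 CPM in replicate 2, 7.32% ± 0.480 of the family. Mir301, the copy within Ska2, had 634 CPM in replicate 1 and 388 CPM in replicate 2, 3.88% ± 0.796 of the family. Mir301b had 20.0 CPM in replicate 1 and 19.4 CPM in replicate 2, from 159 and 210 counts, and was the lowest of the 7 genes with rank 240 of 365. In replicate 1 it still stood 53.0-fold above the 0.377 CPM that 3 counts correspond to there, a floor that covers counting error only. The ranges of Mir130b and Mir301 did not overlap, and Mir130b was higher in both libraries.

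The miR-148/152 family was less dominated by a single gene. It summed to 1783 CPM in replicate 1 and 1160 CPM in replicate 2, or 0.147% ± 0.0441 of microRNA counts (SD, n = 2). Mir148a had 1202 CPM in replicate 1 and 719 CPM in replicate 2, and held 64.7% ± 3.82 of the family. Mir152, in Copz2, had 410 CPM in replicate 1 and 317 CPM in replicate 2, a share of 25.2% ± 3.07. Mir148b, in Copz1, had 171 CPM in replicate 1 and 123 CPM in replicate 2, a share of 10.1% ± 0.745. The order Mir148a, Mir152, Mir148b was the same in both libraries, and the ranges of the 3 genes did not overlap.

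**Figure D1:**
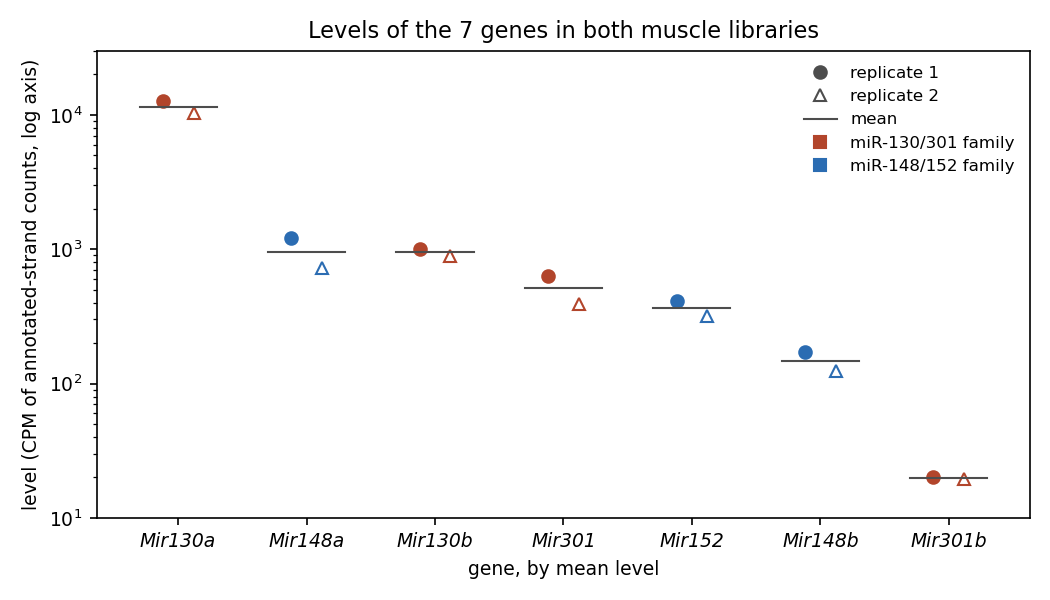
Levels of the 7 genes in CPM of annotated-strand counts (vertical log axis), ordered by mean, with filled circles for replicate 1, open triangles for replicate 2 and a line at the mean of both. Mir130a sits at 12633 and 10392 CPM, far above the other 6 genes, and Mir301b at 20.0 and 19.4 CPM, below all of them.

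Over both families the order of mean levels was Mir130a, Mir148a, Mir130b, Mir301, Mir152, Mir148b and Mir301b. Mir130a exceeded Mir148a, the next gene, 12.5-fold ± 2.78 (SD, n = 2). Mir148a and Mir130b could not be ordered, since Mir148a was 1.21-fold as high as Mir130b in replicate 1 and 0.803-fold in replicate 2. Mir301 and Mir152 had overlapping ranges too, with Mir301 1.55-fold higher in replicate 1 and 1.22-fold higher in replicate 2. The other 4 steps of the order had ranges that did not overlap, and the last, from Mir148b down to Mir301b, was 7.46-fold ± 1.55.

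The sum of the miR-130/301 genes exceeded that of the miR-148/152 genes 8.01-fold in replicate 1 and 10.1-fold in replicate 2, a mean of 9.05 ± 1.46 (SD, n = 2). That difference came from Mir130a. Without Mir130a, the other 3 genes of its family summed to 0.926 of the miR-148/152 family in replicate 1 and 1.12 in replicate 2, so which sum was higher differed between the libraries. Mir130a alone held 79.7% ± 1.57 of the counts of the 7 genes.

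**Figure D2:**
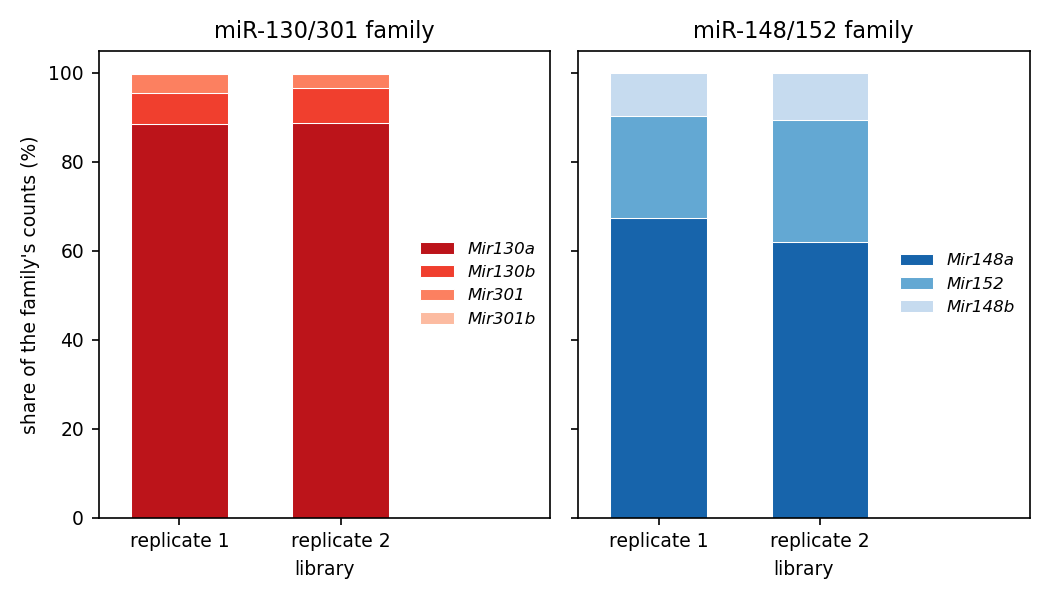
Share of each gene in the counts of its seed family (vertical axis, percent) in replicate 1 and replicate 2, with the miR-130/301 family on the left and the miR-148/152 family on the right. Mir130a fills 88.7% of its bars on average, while Mir148a fills 64.7% and Mir152 25.2% of theirs.

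How far a leading gene outweighs the rest of its seed family was set against other families as a description, chosen after the values were seen. Of 19 seeds carried by at least 3 detected genes, each gene being credited with the seeds of both arms, the leading gene held a median of 68.4% of the counts. By the seed AGUGCAA, Mir130a held 88.8% of the counts of the 3 detected genes RefSeq gives it and ranked 8 of the 19. By CAGUGCA, the leading gene Mir148a held 65.3% and ranked 13. In summed level the seeds AGUGCAA and CAGUGCA ranked 6 and 13 of the 19. Near-identical copies in other families can alter the leading shares, their median and both placings, since their shared reads were set apart. A gene can also lead by both arms, as Mir107 did with 93.2% by GCAGCAU and by GCUUCUU.

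Members of a family, cluster or host pair were compared within each library, where scaling between libraries cancels. These are ratios of counts, and whether each microRNA was recovered equally well as reads was not tested. Mir130b exceeded its cluster neighbour Mir301b 49.9-fold in replicate 1 and 46.1-fold in replicate 2, a log2 ratio of levels of 5.58 ± 0.080 (SD, n = 2). Both hairpins lie in the same host gene, and Mir130b was the higher one in both libraries. The pair was set beside all neighbouring detected genes on 1 strand within 10 kb, 106 pairs, which share clusters and are not independent. Their median absolute log2 level ratio was 2.87, and the Mir130b pair had the 20th largest. The log2 ratio of the pair moved by 0.11 between the libraries, against a median of 0.32 over the 106 pairs, of which 18 moved less. Reads shared with copies elsewhere were kept out of the counts, which can alter the ratios of other pairs and so these placings.

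**Figure D3:**
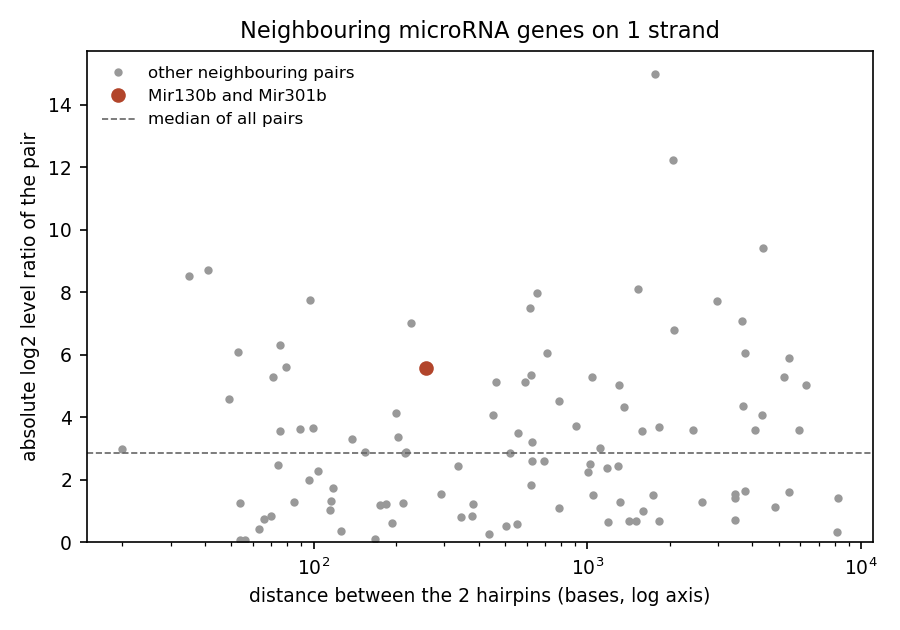
Absolute log2 ratio of mean levels (vertical axis) against the distance between hairpins in bases (horizontal log axis) for 106 pairs of neighbouring detected microRNA genes on 1 strand, with Mir130b and Mir301b in red and a dashed line at the median. The red point lies at 5.58, above the median of 2.87.

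Mir152 exceeded Mir148b, the copy in the paralogous host, 2.40-fold in replicate 1 and 2.57-fold in replicate 2, a log2 ratio of 1.31 ± 0.070. Mir148a exceeded Mir152 2.93-fold in replicate 1 and 2.27-fold in replicate 2, and Mir148b 7.03-fold in replicate 1 and 5.83-fold in replicate 2. In the other family Mir130a exceeded Mir130b 12.7-fold in replicate 1 and 11.6-fold in replicate 2 (log2 3.60 ± 0.090). The pair of Mir130a and Mir301 was looser, at 19.9-fold in replicate 1 and 26.8-fold in replicate 2. Of the 9 pairs within families, the log2 ratio moved most between libraries for Mir301 over Mir301b, 4.99 in replicate 1 and 4.32 in replicate 2, and least for Mir152 over Mir148b.

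Between the libraries no member differed by 2-fold. The libraries were compared after trimmed-mean (TMM) scaling, with replicate 1 over replicate 2 as the ratio and an exact two-sided binomial test per gene over 365 genes (Benjamini-Hochberg, adjusted p under 0.05 and at least 2-fold). The test compares 2 libraries and no condition, and it allows for counting error alone. It called 0 of the 7 members, 6 of which had an unadjusted p under 0.05, while 7.40% of all detected genes were called, 6.30% as higher in replicate 1 and 1.10% as higher in replicate 2. By the adjusted p alone 5 members were higher in replicate 1, against 30.1% of all detected genes, and 1 was higher in replicate 2, against 31.0% (6 of 7 members in either direction, against 61.1%). Genes with many counts pass that p readily, so the members' count is a description.

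Mir148a had the largest ratio of the 7 under TMM, a log2 ratio of 0.50 (95% counting interval 0.45 to 0.54, adjusted p = 7.80e-112 by the exact binomial test). Mir301 followed with 0.47 (0.41 to 0.52, adjusted p = 2.52e-53, exact binomial test). Mir148b had a log2 ratio of 0.22 (0.11 to 0.33), Mir152 of 0.13 (0.056 to 0.19) and Mir130a of 0.036 (0.024 to 0.049). Those of Mir130b, -0.091 (-0.13 to -0.048), and Mir301b, -0.20 (-0.51 to 0.10), turned sign under library totals, to 0.15 and 0.042. Mir301b did not pass the adjusted p (0.267 by the exact binomial test). With no filter on low counts Mir130b did not pass it either (log2 ratio -0.0071, adjusted p = 0.947, exact binomial test), so no member was then higher in replicate 2 by that p. TMM in place of library totals moved every log2 ratio by -0.25. The median absolute log2 ratio was 0.20 for the members and 0.31 for all detected genes, and the median log2 ratio was 0.13 for the members and 0.015 for all.

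**Figure D4:**
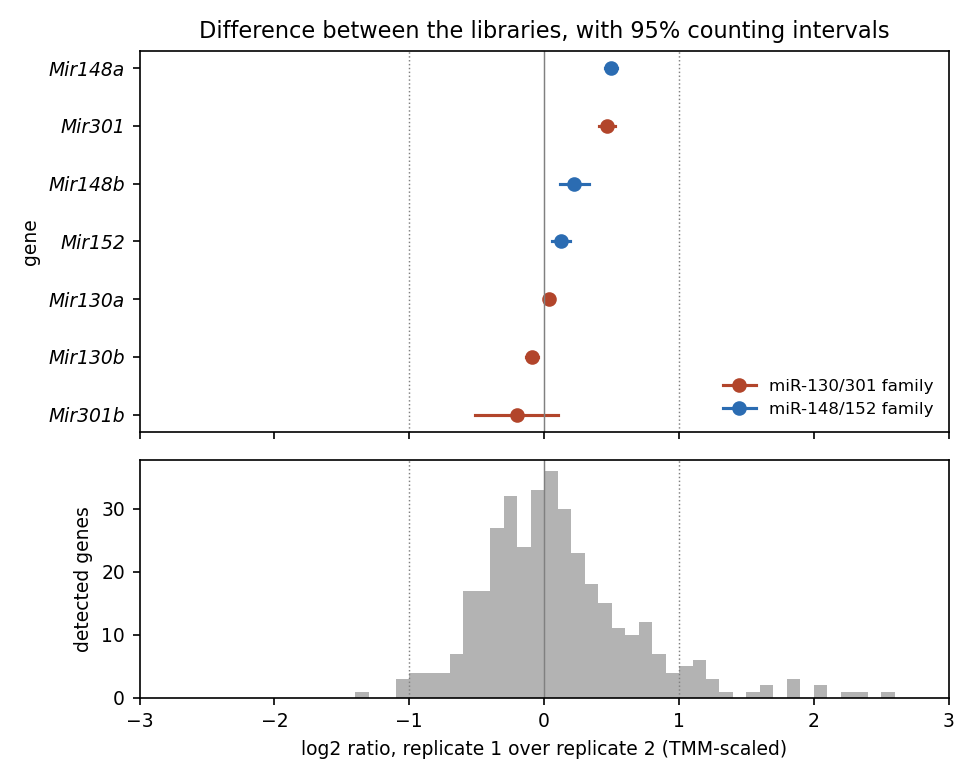
Upper panel, log2 ratio of replicate 1 over replicate 2 after TMM scaling for each of the 7 genes (horizontal axis), with 95% counting intervals as lines. Lower panel, number of the 365 detected genes at each ratio, with dotted lines at 2-fold in both panels. The members lie between -0.20 and 0.50, inside the dotted lines.

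For each member the nearest detected gene was found by Euclidean distance of log2 CPM over the 2 libraries, a likeness that 2 libraries support only weakly. For Mir130a it was Mir196b, with 12160 and 9938 CPM in replicates 1 and 2, a distance of 0.085. For Mir130b it was Mir92-1, with 1013 and 866 CPM and a distance of 0.054. For Mir148a it was Mir93, with 1316 and 746 CPM and a distance of 0.14. The nearest to Mir301, Mir152, Mir148b and Mir301b were Mir467d, Mir27a, Mir3102 and Mir190b, at distances of 0.13, 0.14, 0.19 and 0.13.

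**Figure D5:**
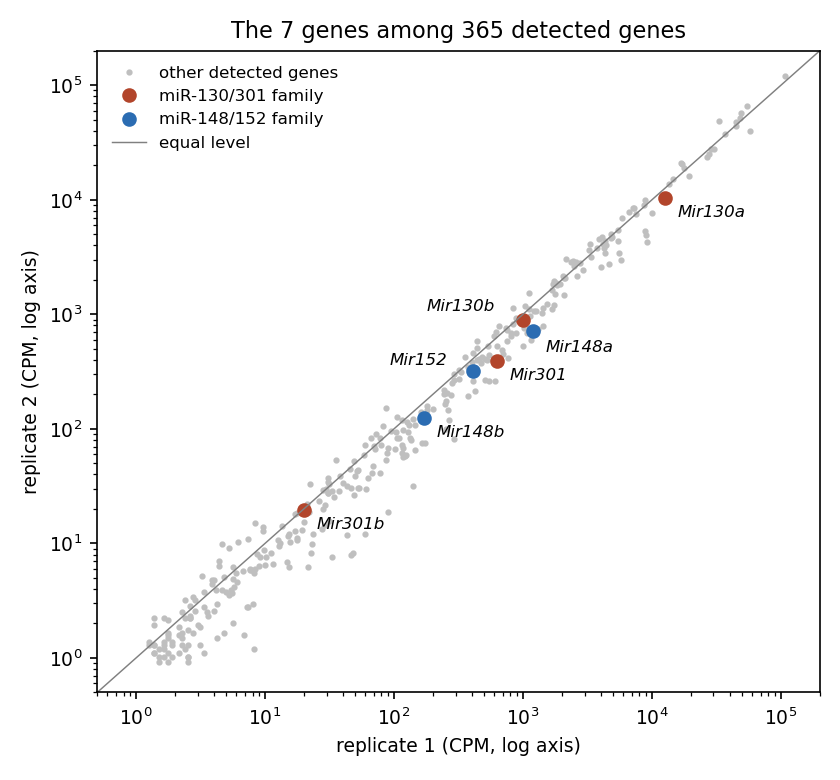
Level in replicate 1 (horizontal log axis, CPM) against replicate 2 (vertical log axis, CPM) for the 365 detected genes in grey, the miR-130/301 genes in red and the miR-148/152 genes in blue, with a line of equal level. Mir130a lies among the 20 highest genes, while Mir301b, at 20.0 and 19.4 CPM, lies below the median of 87.0 CPM.

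Of the other genes with either seed, those in the tables had no counts. Mir130c, Mir6341 and Mir6389 also carry AGUGCAA, and each had 0 counts in both libraries, where 3 counts are 0.377 CPM in replicate 1 and 0.277 CPM in replicate 2. Mir721 carries it as well and was not analysed here. Beyond the members, 2 genes have the 6 bases AGUGCA at base 3 of an arm. Of these, Mir291b had 0 counts in both libraries, and Mir350, whose 5p arm holds them, had 408 CPM in replicate 1 and 263 CPM in replicate 2 over both arms. Since reads with several matching places were kept out, 0 counts cannot show that a gene was absent.

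Whether reads of the members could fit other places was checked on their sequences. None of the 13 mature arms of the 7 genes that RefSeq lists recurred in full in an annotated transcript of another gene. The longest stretch that a member's hairpin shared with another RefSeq hairpin was 17 bases for Mir130a (with Mir6389), 16 for Mir130b (with Mir6368), 16 for Mir301 and Mir301b (with each other), 15 for Mir148a and Mir148b (with each other) and 12 for Mir152. The authors kept reads with several matching places out of the gene counts, 28.01% of reads in replicate 1 and 26.9% in replicate 2, and how many of them were shortened reads of these genes was not tested.

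As for the tissue, 6 of 8 listed skeletal muscle microRNA genes were detected (7 were in the tables). The list summed to 109278 CPM in replicate 1 and 122731 CPM in replicate 2, of which Mir206 had 107144 and 120690. Mir133b had 841 and 823 CPM in replicates 1 and 2, Mir208b 732 and 763 CPM, and Mir499 545 and 442 CPM. Mir1a-1 had 10.1 and 6.47 CPM, Mir133a-1 5.91 and 5.55 CPM, and Mir133a-2 0.880 and 1.48 CPM. Endothelial Mir126a had 44986 and 47428 CPM in replicates 1 and 2, and the smooth muscle genes Mir143 and Mir145a summed to 31531 and 28506 CPM. Leukocyte genes (2 of 3 detected) summed to 574 and 448 CPM, erythroid genes (2 of 2) to 583 and 286 CPM, and epithelial genes (7 of 7) to 531 and 334 CPM. Of 6 neuronal genes, 5 were in the tables and 0 were detected, with Mir124a-1, Mir124a-2 and Mir124a-3 at 0 counts. Reads with several matching places were kept out, so low counts of genes with numbered copies cannot show absence. That holds for these neuronal genes and for Mir1a-1, Mir133a-1 and Mir133a-2. Cardiac Mir208a had 15.5 and 12.1 CPM, and hepatic Mir122 86.4 and 153 CPM. In CPM the cardiac, smooth muscle, leukocyte, erythroid and epithelial values were higher in replicate 1, as were all 7 members. The skeletal muscle, endothelial and hepatic values were higher in replicate 2. Under TMM, Mir143, Mir150, Mir203 and Mir205 had log2 ratios of -0.11, -0.21, -0.12 and -0.065. The other detected genes of the lists higher in replicate 1 had ratios above 0. The part of any cell type in the differences of the members was not tested.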

How the data were processed

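For each library the authors deposited raw counts per microRNA gene, as whole numbers, on assembly mm10 with GENCODE M4 genes (per the readme deposited beside them). Aligner and counter: not given in the sources used here. Of the 3 count columns, the 2 for single strands sum to the first for all 1973 genes, and the second was read as the annotated strand. Rows that name no gene stayed out of library sizes: unmapped reads (16.0% and 13.4% in replicates 1 and 2), reads with several matching places (28.01% and 26.9%) and reads in no gene on the annotated strand (7.43% and 8.35%). Symbols and positions came from GENCODE M21 by gene ID, which matched 1894 of 1973 rows.

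CPM use the sum of annotated-strand counts of each library, and SDs are over 2 libraries. With 1 group there was no condition to test. Libraries were compared by exact binomial tests (scipy 1.17.1) on TMM-scaled sizes (factors 1.09 and 0.918, edgeR 4.0.16), after a minimum of 10 counts in both libraries, with 95% exact intervals. The test was tried on simulated data that held counting error alone, which says nothing of spread between pups. Named genes were the 7 members, genes sharing their seeds or the bases AGUGCA at base 2 or 3, genes within 10 kb, and the nearest gene in level. Members and lists were chosen with earlier results of these data known. Alternatives were library totals, DESeq2 1.42.0 size factors, count minimums of none and 50, a fold minimum of 1.5, unstranded counts, scaling to all reads, division by mature length and each replicate left out.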

Additional observations from a re-analysis of the deposited data

Results flagged for a closer look

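On the strand opposite Mir152, which the comparisons do not use, replicate 1 had 4 counts and replicate 2 had 0. It is given here because it exceeds 3 counts, the upper limit that an observed count of 0 leaves for a level. No control library exists to set it against, so whether it stands above background is not known. Over the 7 genes, opposite-strand counts were 7 of 127839 in replicate 1 and 1 of 139043 in replicate 2, while over all microRNA genes they made up 10.7% and 11.9% of counts in replicates 1 and 2.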

How the results depend on the processing

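No paired analysis was possible because the samples form 1 group. Leaving out a replicate gives the other library's value, printed for each level above, and allows no comparison between libraries. With 2 libraries that value always lies within 1 SD of the mean, so it says nothing of stability. The 3 family shares (unstranded counts) and the 9 pair ratios (unstranded counts and, for 6 pairs, division by mature length) moved by less than 1 SD. Scaling to all reads lowered the mean levels to 5736 CPM for Mir130a, 472 for Mir130b, 253 for Mir301, 9.84 for Mir301b, 477 for Mir148a, 73.2 for Mir148b and 181 for Mir152. Unstranded counts and totals gave 840 CPM for Mir130b and 17.5 for Mir301b and moved the other 5 levels by less than 1 SD. The log2 ratios of Mir130b and Mir301b turned under library totals, to 0.15 and 0.042, that of Mir130b was -0.0071 (adjusted p = 0.947, exact binomial test) with no filter on low counts, and 0 members reached 2-fold under any scaling or filter. Over all genes, 23 were called higher in replicate 1 and 4 in replicate 2 (27 in all). The counts were 41 and 1 (42) under library totals, 13 and 2 (15) of 278 genes with a minimum of 50, and 52 and 20 (72) with a fold minimum of 1.5. Depth limited Mir301b most, with 159 counts in replicate 1.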
